A study of Mus musculus with 12 samples.

Results

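Transcript levels of focal adhesion kinase (FAK, gene Ptk2), its relative PYK2 (gene Ptk2b) and 8 genes of kinases and adaptor proteins that work with them were measured by bulk RNA sequencing in dorsal root ganglia (DRG). The 10 genes were taken by symbol from the 49315 genes of the count table. They are the FAK family kinases Ptk2 and Ptk2b, the Src family kinases Src, Fyn and Yes1, the scaffolds Bcar1, Nedd9 and Pxn, and the pair Git1 and Arhgef7. They were picked by name, with no threshold on a measured value but with earlier results of these data known, and all 10 were among the 18295 genes with enough reads to be tested. The samples were 12 mice aged 10 months, and 1 library was made from about 8 pooled DRG of each mouse. Nf2 mice (n = 6) carried Postn-Cre(+) and Nf2 flox/flox. DKO mice (double knockout, n = 6) carried the same alleles and also Fak1 flox/flox. Each genotype had 3 mice labelled male and 3 labelled female.

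All 12 mice therefore shared the loss of Nf2, and the comparison has no group in which Nf2 was intact. The Cre recombinase is driven by the Periostin promoter, and the study places the resulting loss of Nf2 in Schwann cells and their precursors. The libraries also hold RNA of neurons, macrophages, fibroblasts and other cells of the ganglion, and the share of cells that recombined was not measured here. A fall in a transcript of such bulk tissue can come from fewer cells of a type or from less RNA per cell, and these cannot be told apart. Markers of DRG were present in every library, with summed levels of 4181 to 5927 CPM (read counts scaled to a common library total) for 8 sensory neuron genes and 4021 to 6180 CPM for 8 Schwann cell genes. Total counts ranged from 21129191 to 41250329 reads per mouse.

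FAK is a cytoplasmic tyrosine kinase that is recruited to integrins, the receptors that attach cells to the extracellular matrix. When integrins cluster, FAK phosphorylates a tyrosine of its own, and a Src family kinase docks on the phosphorylated site through its SH2 domain. The paired kinases then phosphorylate scaffolds such as p130Cas and paxillin, which recruit regulators of the small GTPases RAC and CDC42 and so direct spreading and migration. In peripheral nerve, Schwann cells contact the basal lamina through integrins, and FAK is known to be needed for the expansion of the Schwann cell population before myelination. Merlin, the product of Nf2, restrains signalling from such adhesions.

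The docking site for Src family kinases is a feature that FAK and PYK2 share, so its coding DNA is shown for both genes. The sequences were read from the principal transcripts of GENCODE M21 (GRCm38). Capitals mark the codon of the autophosphorylated tyrosine and the next 3 codons, which are the docking motif.
Ptk2: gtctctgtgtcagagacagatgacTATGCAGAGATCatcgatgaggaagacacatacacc
Ptk2b: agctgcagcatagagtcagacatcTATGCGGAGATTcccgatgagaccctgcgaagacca
The tyrosine is codon 397 of the 1052 codons of Ptk2 and codon 402 of the 967 codons of Ptk2b. Of the 12 bases in capitals 10 are identical, and of the 60 bases shown 30 are identical.

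The genes of a family also resemble each other over short runs of sequence, which decides whether a read can be given to one of them. The longest run that the principal transcripts of Ptk2 and Ptk2b share without a mismatch and that of Fyn and Yes1 are shown for this reason.
Ptk2 and Ptk2b: ccctggctgtggatgccaagaacct
Fyn and Yes1: cggaaggagactggtgggaagc
These runs are 25 and 22 bases long. The longest run of Bcar1 and Nedd9 was 20 bases, and that of Src and Fyn was 17 bases. No stretch of 50 bases in the principal transcript of 9 of the genes occurred in a transcript of another annotated gene. For the principal transcript of Yes1, 1 of 4537 such stretches also occurred in Gm15967. Over all annotated transcripts of these genes the longest shared run was 51 bases, between Ptk2 and Yes1, in a retained-intron transcript of each that is not the principal one. Over all their transcripts, 1.01% of the 50-base stretches of Ptk2, 0.777% of those of Arhgef7, 0.49% of those of Yes1 and 0.222% of those of Bcar1 occurred in another gene, and none of those of the other 6 genes did. Exons of Yes1 overlap the opposite-strand gene Gm10461 by 635 bases, and that gene had 0.733 to 1.42 CPM. Those of Nedd9 overlap the opposite-strand gene Gm32401 by 62 bases. The strand setting of the counting is not given in the sources used here, so reads in these overlaps cannot be assigned to either strand.

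Ptk2 is the gene deleted in DKO mice and was examined first. Ptk2 (ENSMUSG00000022607) lies on the minus strand of GRCm38 at chr15:73205102-73423280 and has 30 coding exons in its principal transcript of 4417 bases. The level ranged from 65.8 to 75.5 CPM in Nf2 mice, with a median of 70.1 CPM. In DKO mice it ranged from 46.5 to 76.0 CPM, with a median of 66.8 CPM. The genotypes overlapped, since DKO mice held both the lowest and the highest value of the series, and 3 DKO mice fell below all Nf2 mice. The means were 69.95 ± 3.60 CPM among Nf2 and 64.0 ± 10.4 CPM among DKO mice (SD, n = 6). The log2 fold change of DKO against Nf2 was -0.15 (SE 0.098), with a 95% interval of -0.36 to 0.06 and an adjusted p of 0.529 by edgeR's quasi-likelihood test with Benjamini-Hochberg adjustment over all tested genes. Which exon or exons the recombination removes is not given in the sources used here. A median coding exon of Ptk2 has 99 bases, 2.25% of the principal transcript, and the longest has 4.75%. If a transcript that lacks 1 exon is still made, a count over the whole gene also takes up its reads. Whether such a transcript was present was not tested, and the Ptk2 level does not by itself check the genotype.

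The lowest Ptk2 values were those of DKO mouse 886, with 46.5 CPM, and DKO mouse 917, with 58.0 CPM. Mouse 886 also had the lowest summed Schwann cell markers of the 12 mice (4021 CPM, against 4471 to 6180 CPM in the others). Its summed fibroblast markers were the lowest of the series too (1201 CPM), but the single markers went both ways. Col1a1 (94.4 CPM), Col1a2 (260 CPM) and Lum (55.8 CPM) were at their lowest in this mouse. Pdgfra (45.8 CPM) and Dcn (745 CPM) were at their highest. The part of these marker levels in its Ptk2 level was not tested. Without mouse 886 the log2 fold change of Ptk2 was -0.07 (edgeR adjusted p = 0.732). The Nf2 gene, deleted in both genotypes, was at 128 ± 12.4 CPM among Nf2 and 118 ± 11.2 CPM among DKO mice, a log2 difference of -0.14 with a 95% interval of -0.30 to 0.03.

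PYK2 is the other kinase of the family, is activated by calcium as well as by adhesion, and binds many of the same partners. Ptk2b (ENSMUSG00000059456, GRCm38 chr14:66153257-66281052) ranged from 28.0 to 34.4 CPM in Nf2 mice, with a median of 32.3 CPM. In DKO mice it ranged from 25.7 to 45.3 CPM, with a median of 34.4 CPM. DKO mice again held both ends of the range, and 3 of them lay above all Nf2 mice. The means were 32.1 ± 2.32 CPM among Nf2 and 34.7 ± 6.29 CPM among DKO mice (SD, n = 6). The log2 fold change was 0.09 (SE 0.104, 95% interval -0.13 to 0.32, edgeR adjusted p = 0.728). The interval runs from a level 0.914 times that of Nf2 mice to one 1.25 times as high. The highest Ptk2b level was that of mouse 886, the mouse with the lowest Ptk2 level. Without this mouse the log2 fold change of Ptk2b was 0.0019 (edgeR adjusted p = 0.995).

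**Figure D1:**
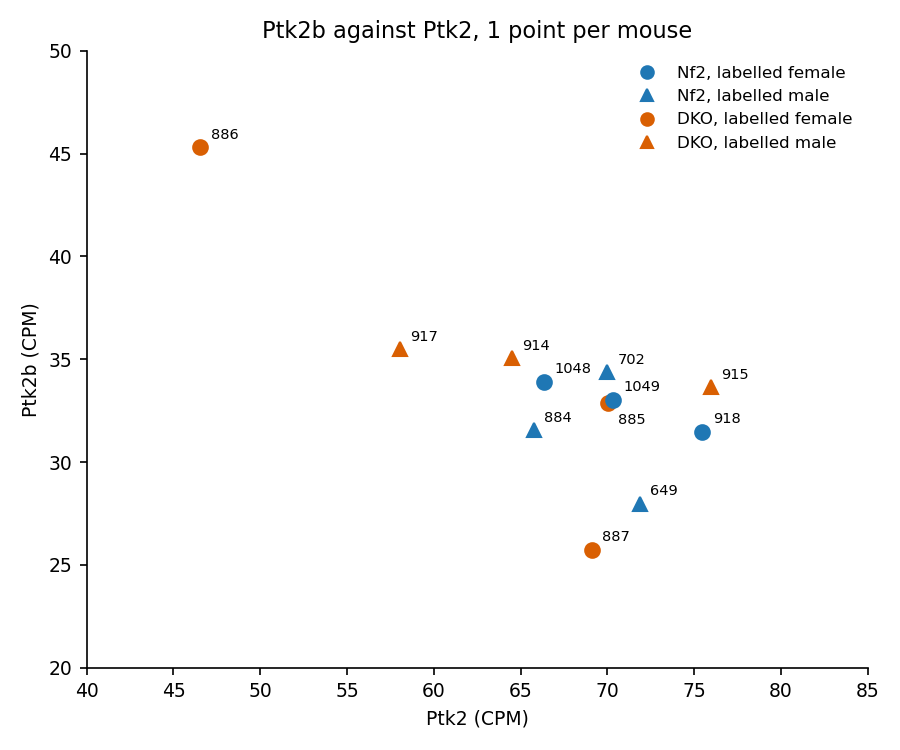
Level of Ptk2b (vertical axis, CPM) against that of Ptk2 (horizontal axis, CPM), 1 point per mouse, coloured by genotype and shaped by labelled sex, on axes that do not start at 0. DKO mouse 886 stands at 46.5 CPM of Ptk2 and 45.3 CPM of Ptk2b, and the other 11 mice lie between 58.0 and 76.0 CPM of Ptk2 and between 25.7 and 35.5 CPM of Ptk2b.

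The number of Ptk2b reads per Ptk2 read was taken as a value that needs no scaling between libraries. It ranged from 0.389 to 0.511 in Nf2 mice and from 0.373 to 0.973 in DKO mice. The mean log2 ratio was -1.13 ± 0.15 in Nf2 mice and -0.89 ± 0.48 in DKO mice (SD, n = 6). The difference of 0.24 did not pass a two-sided exact permutation test over the 924 splits of the mice (p = 0.297, where the smallest possible p is 0.00216). DKO mouse 886, with 0.973, had nearly as many Ptk2b as Ptk2 reads, and without it the difference was 0.07 (exact permutation p = 0.593). The 2 genes differ in length, so these ratios compare mice and not the levels of both transcripts.

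**Figure D2:**
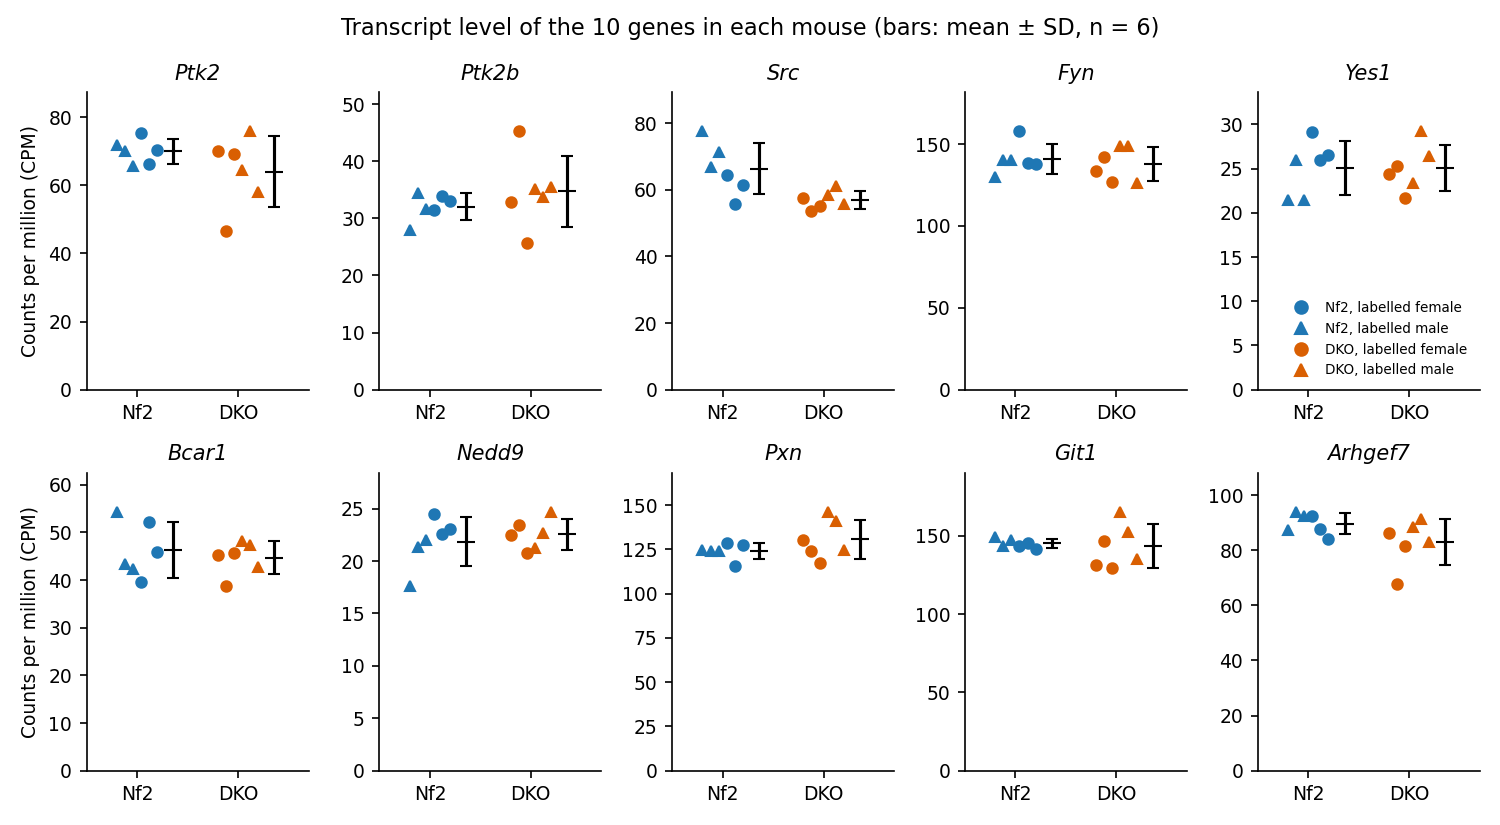
CPM of the 10 genes (vertical axes, from 0) in each mouse by genotype, with symbols for labelled sex and bars for the mean ± SD of 6 mice. The genotypes overlap in every panel, and the 6 DKO mice of Src lie below its Nf2 mean of 66.3 CPM.

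Src, Fyn and Yes1 encode the 3 widely expressed Src family kinases, which dock on FAK and PYK2 and phosphorylate their scaffolds. Src (ENSMUSG00000027646, GRCm38 chr2:157418444-157471862) had the largest genotype difference of the 10 genes. It ranged from 55.7 to 77.7 CPM in Nf2 mice, with a median of 65.7 CPM, and from 53.5 to 61.3 CPM in DKO mice, with a median of 56.6 CPM. All 6 DKO mice lay below the Nf2 mean and 3 lay below every Nf2 mouse, while the lowest Nf2 mouse, 1048, lay within the DKO range. The means were 66.3 ± 7.68 CPM among Nf2 and 57.0 ± 2.79 CPM among DKO mice (SD, n = 6). The log2 fold change was -0.24 (SE 0.078) with a 95% interval of -0.41 to -0.07, that is 0.847 times the Nf2 level with bounds of 0.754 and 0.951. The unadjusted p of edgeR was 0.00843, rank 954 among the tested genes, and the adjusted p was 0.161, so Src did not pass the threshold of 0.05. Leaving out each mouse in turn moved the log2 fold change between -0.29 and -0.18. It was -0.18 (edgeR adjusted p = 0.216) without Nf2 mouse 649, which held the highest Src level. With all 12 mice the adjusted p was 0.0792 with DESeq2 and 0.118 with limma voom.

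Fyn (ENSMUSG00000019843, GRCm38 chr10:39368855-39565381) ranged from 130 to 158 CPM among Nf2 and from 126 to 149 CPM among DKO mice. Its log2 fold change was -0.05 (SE 0.061, 95% interval -0.18 to 0.08, edgeR adjusted p = 0.756). Yes1 (ENSMUSG00000014932, GRCm38 chr5:32611171-32687057) ranged from 21.4 to 29.1 CPM among Nf2 and from 21.7 to 29.3 CPM among DKO mice. Its means of 25.1 ± 3.05 and 25.0 ± 2.63 CPM gave a log2 fold change of -0.02 (SE 0.090, 95% interval -0.22 to 0.17). For both genes most DKO mice lay within the range of the Nf2 mice, 4 of 6 for Fyn and 5 of 6 for Yes1.

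The scaffolds carry the phosphorylated tyrosines on which further adaptors assemble. Bcar1 encodes p130Cas, a substrate of FAK and Src whose central domain recruits CRK. Bcar1 (ENSMUSG00000031955, GRCm38 chr8:111710474-111743809) had 46.3 ± 5.77 CPM among Nf2 and 44.7 ± 3.45 CPM among DKO mice, and 5 DKO mice lay within the Nf2 range. Nedd9 encodes a second protein of the Cas family, also called HEF1. Nedd9 (ENSMUSG00000021365, GRCm38 chr13:41309581-41487362) had 21.8 ± 2.34 and 22.5 ± 1.45 CPM, again with 5 DKO mice within the Nf2 range. The log2 fold changes were -0.07 (95% interval -0.25 to 0.11) for Bcar1 and 0.03 (95% interval -0.14 to 0.19) for Nedd9.

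Pxn encodes paxillin, which binds the focal adhesion targeting domain of FAK and holds the kinase at adhesions. Pxn (ENSMUSG00000029528, GRCm38 chr5:115506676-115555987) ranged from 115 to 129 CPM among Nf2 and from 117 to 146 CPM among DKO mice, and 3 DKO mice lay above all Nf2 mice. Its log2 fold change was 0.05 (SE 0.057, 95% interval -0.07 to 0.18, edgeR adjusted p = 0.719).

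GIT1 and the exchange factor beta-PIX, the product of Arhgef7, form a complex that joins paxillin to PAK kinases and to RAC and CDC42. Git1 (ENSMUSG00000011877, GRCm38 chr11:77493562-77507786) had the narrowest spread of the 10 genes among Nf2 mice, from 142 to 149 CPM. In DKO mice it ranged from 130 to 165 CPM, and 3 DKO mice lay below and 2 above all Nf2 mice. The means nevertheless differed little, 145 ± 2.64 against 143 ± 13.9 CPM (SD, n = 6), with a log2 fold change of -0.04 (95% interval -0.17 to 0.09). Arhgef7 (ENSMUSG00000031511, GRCm38 chr8:11727721-11835219) ranged from 84.1 to 94.0 CPM among Nf2 and from 67.8 to 91.4 CPM among DKO mice. Its DKO minimum was again mouse 886, and 5 of 6 DKO mice lay below the Nf2 mean of 89.7 CPM. The log2 fold change was -0.13 (SE 0.068, 95% interval -0.27 to 0.02, edgeR adjusted p = 0.402), and -0.08 without mouse 886.

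None of the 10 genes passed the threshold of an edgeR adjusted p under 0.05, which 172 of the 18295 tested genes (0.94%) passed, 0.372% of all genes as higher and 0.568% as lower in DKO mice. At an unadjusted p under 0.05, 1 of the 10 genes (Src) was called, against 14.9% of all tested genes. DESeq2 and limma voom also called 0 of the 10, where they called 4.54% and 2.85% of all genes. At an unadjusted p under 0.05 each of these tools called Src alone, against 16.1% and 18.5% of all genes. No gene of the 10 separated the genotypes without overlap, as 1.95% of all tested genes did. The median log2 fold change was -0.04, with 3 genes above 0 and 7 below, and the median over all tested genes was 0.0047. The median size of the change regardless of sign was 0.061 for the 10 genes and 0.119 for all tested genes. The 95% intervals of the 10 genes lay between 0.754 and 1.25 times the Nf2 level, and larger differences lay outside every interval.

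**Figure D3:**
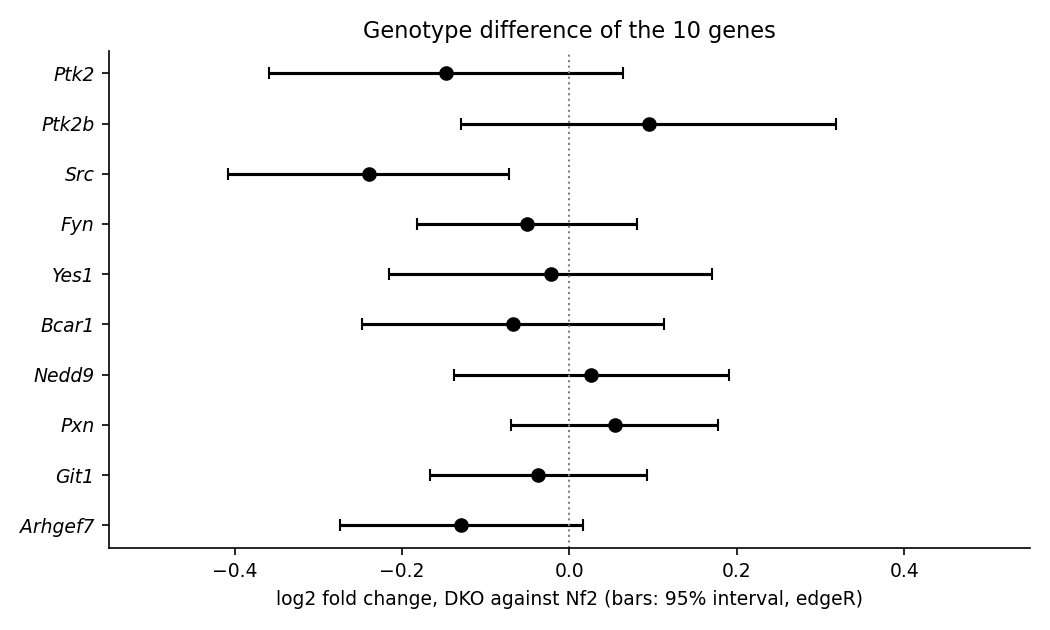
log2 fold change of DKO against Nf2 mice (horizontal axis) for the 10 genes, with 95% intervals from edgeR and a dotted line at 0. The interval of Src, -0.41 to -0.07, does not reach 0 before adjustment over all genes, and the other 9 intervals include 0.

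The spread between mice was set against counting error. The coefficient of variation between mice was 1.82% to 12.5% among Nf2 and 4.89% to 18.1% among DKO mice, and counting error alone would give 1.59% to 4.09%. The 2 were closest for Git1 in Nf2 mice, 1.82% against 1.59%. The highest coefficients were those of Ptk2b (18.1%) and Ptk2 (16.3%) in DKO mice, against 7.24% and 5.14% in Nf2 mice. Src (11.6% in Nf2 and 4.89% in DKO mice), Bcar1 (12.5% and 7.72%), Nedd9 (10.7% and 6.41%) and Yes1 (12.2% and 10.5%) varied more among Nf2 than among DKO mice. Among DKO mice, mouse 887 was lowest for 5 of the 10 genes and mouse 886 for 4, and mouse 915 was highest for 5. Mouse 887 also had the fewest reads (21129191) and the highest share of mitochondrial reads of the 12 libraries (5.60%). Among Nf2 mice, mouse 649 was lowest for 3 of the 10 genes and highest for 3, and had the highest mitochondrial share of its genotype (4.45%). The part of these properties in the levels of mice 887 and 649 was not tested.

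Levels were compared between genes per kilobase of annotated exon sequence. In Nf2 mice Fyn (32.3 ± 2.15 CPM per kb) and Git1 (30.01 ± 0.545 CPM per kb) were highest. Src (15.2 ± 1.76), Pxn (15.1 ± 0.566) and Bcar1 (10.2 ± 1.27 CPM per kb) followed. Ptk2 (5.93 ± 0.305), Arhgef7 (5.69 ± 0.246), Ptk2b (4.33 ± 0.314), Nedd9 (3.43 ± 0.366) and Yes1 (3.34 ± 0.406 CPM per kb) were lowest. The neighbours Fyn and Git1, Src and Pxn, Ptk2 and Arhgef7, Ptk2b and Nedd9, and Nedd9 and Yes1 overlapped in their ranges over the 6 Nf2 mice, and the other neighbours did not. In DKO mice Pxn (14.3 to 17.8 CPM per kb) lay above Src (12.2 to 14.02 CPM per kb) without overlap, and Arhgef7 overlapped Ptk2b. Ptk2 therefore stood above Ptk2b per length in every Nf2 mouse, and in DKO mice their ranges were 3.94 to 6.44 and 3.48 to 6.12 CPM per kb. The order depends on the length used, because the exon sequence of Arhgef7 sums to 15751 bases over all annotated transcripts and its principal transcript has 4451. By principal transcript, Git1 stood first at 41.3 CPM per kb and Arhgef7 rose from place 7 to place 4 at 20.1 CPM per kb in Nf2 mice.

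**Figure D4:**
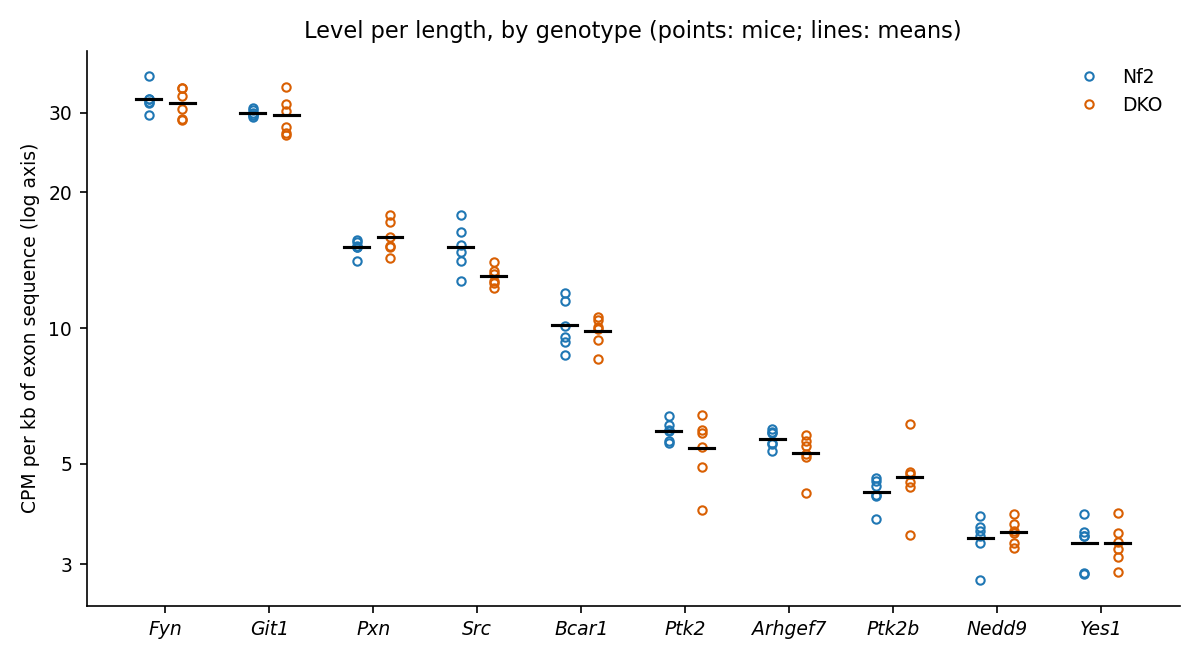
Level of each gene in CPM per kb of annotated exon sequence (vertical log axis), 1 point per mouse and a line at the mean of each genotype, with genes ordered by the mean over both genotypes. Fyn and Git1 stand at about 30 CPM per kb and Nedd9 and Yes1 between 2.76 and 3.90 CPM per kb.

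The sexes were compared with genotype as a covariate. None of the 10 genes passed an adjusted p under 0.05, which 3 genes of the whole table (0.0164%) did, and 1 of the 10 (Src) had an unadjusted p under 0.05, as did 2.91% of all tested genes. DESeq2 (0.0273% of all genes past the adjusted threshold, 3.26% unadjusted) gave the same counts of 0 and 1, again Src. Src was 0.16 higher on the log2 scale in males (SE 0.067, edgeR adjusted p = 1.00). The dependence of the genotype difference on labelled sex was tested as an interaction, in which 0 of the 10 genes passed an adjusted p under 0.05 (0.0109% of all genes) and 0 had an unadjusted p under 0.05 (4.78% of all genes). DESeq2 also gave 0 and 0 (0.109% and 5.23% of all genes). The genotype difference of Src was -0.35 in males and -0.13 in females on the log2 scale, and the interaction of -0.22 (SE 0.124) had an edgeR adjusted p of 0.920. Yes1 had the largest interaction, 0.34 (SE 0.165, edgeR adjusted p = 0.920).

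The library of mouse 702, an Nf2 mouse labelled male, had 496 CPM of Xist and 0.525 CPM of the Y-linked gene Ddx3y. The 6 libraries labelled female had 428 to 637 CPM of Xist, and the other 5 labelled male had 0.364 to 6.17 CPM of Xist and 76.0 to 86.3 CPM of Ddx3y. This library thus goes against its sex label, and without it the interaction was 0.44 for Yes1 (SE 0.160, edgeR unadjusted p = 0.0185, adjusted p = 0.776) and -0.27 for Src (SE 0.132, edgeR adjusted p = 0.776). Without it, 0 of the 10 genes passed the adjusted threshold for the interaction (0.0109% of all genes) and 1, Yes1, the unadjusted one (5.12%). The male against female comparison without it likewise gave 0 adjusted (0.0437%) and 1 unadjusted, Src (2.65%). The genotype comparison of all 12 mice does not use the sex labels.

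Markers of other cell types in the ganglion are given beside these values. All 10 macrophage markers had negative log2 fold changes, with a median of -0.45, and 1 of them passed the threshold (C1qb, -0.71, edgeR adjusted p = 0.0138). Their summed level was 219 to 329 CPM among Nf2 and 180 to 239 CPM among DKO mice, and none of them was at 0 in any mouse. With the macrophage level of each mouse as a covariate, the log2 fold change was -0.00025 for Src (SE 0.100) and 0.07 for Ptk2 (SE 0.136), and the edgeR adjusted p of all 10 genes was 1.00. These standard errors were larger than without the covariate (0.078 for Src and 0.098 for Ptk2). The macrophage level itself differed between the genotypes with little overlap. For any gene this fit therefore cannot tell the part of the macrophage level from that of the genotype. All 9 skeletal muscle markers also had negative values, with a median of -2.27, and their sum ranged from 12.4 to 916 CPM among Nf2 and from 18.6 to 315 CPM among DKO mice. With the muscle level as a covariate Src was at -0.28 (SE 0.087) and Ptk2 at -0.14 (SE 0.113). Schwann cell markers did not separate the genotypes, with 4471 to 5666 CPM in Nf2 and 4021 to 6180 CPM in DKO mice, and with their level as a covariate Src was at -0.20 (SE 0.081) and Ptk2 at -0.07 (SE 0.090).

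The wider pathway was taken as 66 further genes in 7 lists, of which 65 were tested and Blk was not. None passed the edgeR threshold, in a table where 0.94% of genes did. At an unadjusted p under 0.05, 5 were higher (6.91% of all tested genes were) and 9 lower (7.96% of all). Both directions together made up 21.5% of the 65, against 14.9% of all tested genes. The counts of the single lists of 4 to 14 genes given below are to be read beside these same shares. Their median log2 fold change was 0.0012. The gene with the lowest p was Pak3, a kinase activated by RAC and CDC42 that is expressed in neurons. Pak3 ranged from 57.1 to 64.3 CPM among Nf2 and from 66.1 to 86.5 CPM among DKO mice. The genotypes thus did not overlap, which was also the case for 1.95% of all tested genes. Its log2 fold change was 0.30 (SE 0.072, 95% interval 0.14 to 0.45) with an edgeR adjusted p of 0.0733, and DESeq2 gave 0.00877.

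The integrin adhesion core of 14 genes (integrin beta chains, talins, vinculin, kindlin and others that link integrins to actin) had 0 genes higher and 3 lower at an unadjusted p under 0.05, with a median of -0.05. Its lowest value was that of Tns3, which encodes tensin 3, a protein that binds integrin tails and actin. Tns3 ranged from 328 to 460 CPM among Nf2 and from 269 to 331 CPM among DKO mice, with a log2 fold change of -0.36 (SE 0.091, edgeR adjusted p = 0.0789, DESeq2 adjusted p = 0.00859). Its highest value was that of Itgb3, an integrin chain, at 0.35 (edgeR adjusted p = 0.508).

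The arm from CRK through DOCK1 to RAC had 8 genes, 1 higher and 2 lower at an unadjusted p under 0.05. Rac1 itself, the GTPase at the end of the arm, had 297 ± 9.80 CPM among Nf2 and 261 ± 26.8 CPM among DKO mice, which is -0.21 on the log2 scale (SE 0.066, edgeR adjusted p = 0.158, DESeq2 adjusted p = 0.0458). Elmo1, which pairs with DOCK proteins to activate RAC, had the highest value of the arm, 0.26 (edgeR adjusted p = 0.143). In the GIT, PIX and PAK arm 2 of 8 genes were higher and 0 lower by the same measure, and its lowest value was -0.16 for Nck2, an adaptor of PAK kinases.

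The other Src family kinases and their regulators (10 genes tested) had 1 higher and 3 lower. The highest was Cbl at 0.28 (edgeR adjusted p = 0.220), a ubiquitin ligase that turns over active tyrosine kinases. The other Cas and paxillin relatives (4 genes) had 0 higher and 1 lower. Their lowest was Lpxn, a paxillin relative of blood cells, at -0.34 (edgeR adjusted p = 0.317), and their highest was Cass4 at 0.0040 with under 1 CPM in each group. Markers of blood cells went both ways. The macrophage markers given above and those of T and NK cells (median log2 fold change -0.51) moved in the same direction as Lpxn. Those of B and plasma cells (median 0.81), neutrophils (0.54) and erythroid cells (0.76) had medians of the opposite sign. Their ranges overlapped widely. Summed neutrophil markers had 9.16 to 437 CPM among Nf2 and 13.4 to 357 CPM among DKO mice. Erythroid ones had 36.9 to 545 and 59.9 to 770 CPM, and B and plasma cell ones 4.73 to 31.7 and 5.35 to 40.2 CPM. The T and NK cell sums were low, 2.60 to 5.27 and 2.26 to 4.10 CPM. The part of any of these cells in the Lpxn level was not tested.

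Among 13 genes whose products bind or regulate FAK or PYK2, 1 was higher and 0 lower at an unadjusted p under 0.05. The highest was Pitpnm3 at 0.47 (7.83 ± 1.90 against 11.0 ± 1.99 CPM, edgeR adjusted p = 0.173), and the lowest was Asap2, an ARF GTPase-activating protein, at -0.15. The GRB2, SHC and PI3K arm of 8 genes had 0 in either direction, between -0.11 for Grb7 and 0.13 for Pik3cb.

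**Figure D5:**
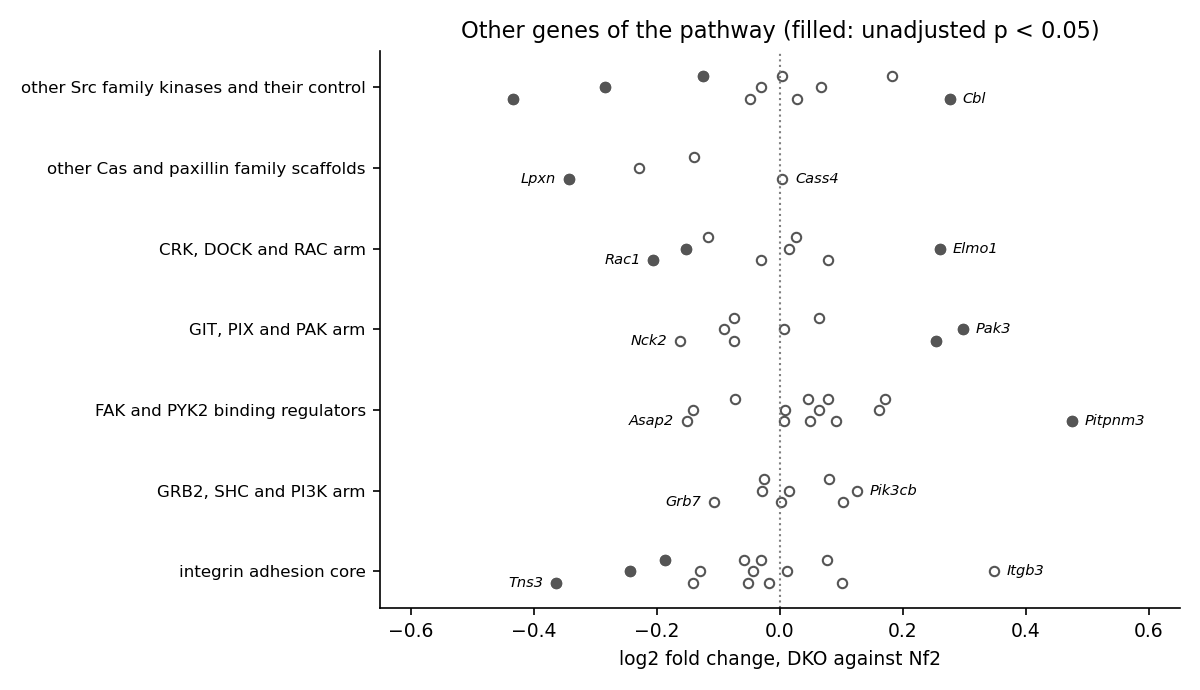
log2 fold change of DKO against Nf2 mice (horizontal axis) for the 65 tested genes of the 7 pathway lists, 1 point per gene, filled where the unadjusted p is under 0.05 with names beside most of the lowest and highest genes of a list. The filled points lie on both sides of 0, 5 above and 9 below, and none passes the adjusted threshold.

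The genes whose levels moved most like those of Ptk2 and Ptk2b over the 12 mice were found among 10509 genes with a mean of at least 10 CPM. For Ptk2 they were Tspan15 (Pearson r = 0.950, Spearman rho = 0.860), Gsap (r = 0.947), Cnpy2 (r = 0.945), Col1a2 (r = 0.934) and Hexa (r = 0.933). Without the mice farthest from the median, 886 and 917, these values fell to between 0.605 and 0.807, so the order rests in part on those mice. For Ptk2b they were Arih2 (r = 0.960, rho = 0.937), Tfdp2 (r = 0.936), Xpnpep1 (r = 0.933), Eml2 (r = 0.931) and Stx12 (r = 0.922), with 0.676 to 0.901 without mice 886 and 887. All values are over the same 12 libraries, whose composition differs, and describe these mice only.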

How the data were processed

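RNA was sequenced for the study by a commercial provider after poly(A) selection with the NEBNext Ultra II kit. Per the submitters' processing notes, Trimmomatic 0.36, STAR 2.5.2b and featureCounts of Subread 1.5.2 were used with GRCm38. Annotation release, strand setting and treatment of reads with several matches are not given in the sources used here. The authors deposited raw counts per Ensembl gene and mouse, and the study plotted log2(CPM + 4).

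CPM is the count scaled to the library total. Of the 49315 genes, 48970 (99.3%) were found in GENCODE M21, which gave coordinates and lengths. The 18295 genes kept by filterByExpr were scaled by TMM and compared by edgeR 4.0.16 (quasi-likelihood F test, R 4.3.3) in all 12 mice, with p-values adjusted by the Benjamini-Hochberg method (threshold 0.05). Alternatives used DESeq2 1.42.0, limma 3.58.1 (voom), other scalings, filters, covariates and subsets. Males without mouse 702 were added after seeing the data. Intervals are 95%. The procedure was tested on simulated data. The labels call each library a separate mouse. The 10 genes and all lists were chosen with earlier results of these data known. Named are the 10 genes, the lowest and highest gene of each pathway list (1 is not reported here), marker genes, and for Ptk2 and Ptk2b the 5 most alike genes.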

Additional observations from a re-analysis of the deposited data

Results flagged for a closer look

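Among 22 sets of 6 mice (CPM of the 10 genes and the log2 ratio of Ptk2b to Ptk2 reads, in each genotype), 1 held a mouse whose distance to the nearest other was large for the range of its genotype (over 0.625 of it). Nf2 mouse 1048 had 115 CPM of Pxn, against 124 CPM in the next lowest, a gap of 0.643 of the range. Chance gives such a gap in about 1 of 20 sets. DKO mouse 886, at the end of the range for Ptk2 and Ptk2b, did not meet this criterion for any of the 10 genes.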

How the results depend on the processing

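The count of 0 among the 10 genes held in all 26 alternatives of the genotype comparison, and in the 15 of each sex model. The count of all tested genes past the threshold, 172, was 831 with DESeq2, 521 with limma voom, 96, 84 and 1 with the muscle, Schwann cell and macrophage level as covariate, 56 in females alone, 2 in males alone, 8 in males without mouse 702, and 80 to 210 when each mouse was left out. The count of other pathway genes, 0, was 1 without scaling factors (Pak3), 3 with DESeq2 (Pak3, Tns3 and Rac1) and 2 with limma voom (Pak3 and Tns3). The causes were not tested. Signs of small log2 fold changes turned for Bcar1 (0.0023) and Nedd9 (-0.0094) with limma voom, and for Nedd9 with the Schwann cell covariate (-0.014). With the macrophage covariate they turned for Ptk2 (0.075), Ptk2b (-0.058), Fyn (0.015), Nedd9 (-0.055) and Arhgef7 (0.027). They turned for Nedd9 (-0.077) and Pxn (-0.0014) in females alone, and for Fyn (0.0033) and Yes1 (0.15) in males alone, or 0.021 and 0.25 without mouse 702. With single mice left out, Nedd9 ranged from -0.025 to 0.065 and Yes1 from -0.077 to 0.028. Src and Git1 did not turn sign, but Src was at -0.00025 (SE 0.100) with the macrophage covariate. The difference between genotypes in the log2 ratio of Ptk2b to Ptk2 reads was 0.22 on the log2(CPM + 4) scale, 0.25 in females, 0.23 in males, 0.29 in males without mouse 702, and 0.07 to 0.35 with single mice left out, with no exact permutation p under 0.05 (3 against 3 mice cannot go below 0.10). No paired analysis was possible because mouse numbers are not shared between genotypes. No minimum detectable difference was computed for these 12 mice.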
